A study of Mus with 10 samples.

Results

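*Tmem176a* and *Tmem176b* are a pair of adjacent genes on chromosome 6, and their levels were followed in 10 RNA-seq libraries of type 1 innate lymphoid cells (ILC1s) from mouse liver. They are 2 of the 24564 genes of the deposited count table, taken by their gene names, and both passed the filter on low counts that left 11463 genes. The pair was chosen from the values of these same libraries, with the difference between the genotypes already known. That difference is therefore given below as a description, without a test.

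The 5 *Ncr1*+/+ libraries are from C57BL/6 mice bought as wild type. The 5 *Ncr1*gfp/gfp libraries are from mice of the same strain in which *gfp* stands in the place of *Ncr1*, the gene of the receptor NKp46. Male or female mice of 6 to 8 weeks were used, and all cells were taken without treatment and sorted as Lin-NK1.1+CD49b-CD49a+. NKp46 marked the *Ncr1*+/+ cells and GFP marked the *Ncr1*gfp/gfp cells, so that the gate differed with the genotype. The study speaks of RNA pools, but the sources do not say how many mice a library holds or whether the genotypes were littermates, and p-values measure only the spread between these libraries.

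The TMEM176 proteins are small membrane-spanning proteins related to the MS4A family, which includes the B cell antigen CD20. They lie mainly in membranes inside the cell, where they have been described as cation channels. In the immune system they are best known from dendritic cells and macrophages and from lymphocytes of the type 3 lineage, and the 2 genes are usually found active in the same cells.

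In the deposited table, *Tmem176b* runs from 48783811 to 48791373 of chromosome 6, on the minus strand, with 2048 bases of exon. *Tmem176a* is on the plus strand from 48791482 to 48795363, with 1119 bases of exon. The study names mm10 as the genome its reads were mapped to. The table does not name the build of these coordinates, which are not those of GRCm38, the assembly of mm10. The gene bodies do not overlap in the table, and 108 bases separate them. Their starts face each other across this gap, so that they are read in opposite directions. In the RefSeq annotation of GRCm38.p6 the longest span of *Tmem176b* takes in that of *Tmem176a*, and reads from such longer transcripts could not be told apart from *Tmem176a* reads without strand.

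Library totals ranged from 15796253 to 22623133 counts, and a difference between the genotypes was not shown (two-sided exact permutation test, p = 0.254). *Ncr1* itself, the targeted gene, had between 1913 and 2144 CPM (read counts relative to the library total, scaled by TMM) in *Ncr1*+/+ and between 141 and 356 CPM in *Ncr1*gfp/gfp libraries. The defining genes of the gate were present, with *Klrb1c* (NK1.1) at 1311 ± 47.8 and *Itga1* (CD49a) at 779 ± 30.4 CPM in *Ncr1*+/+ ILC1s (SD, n = 5). In *Ncr1*gfp/gfp ILC1s they were at 1333 ± 80.4 and 971 ± 35.1 CPM (SD, n = 5). *Itga1* thus differed between the genotypes, with no overlap of their libraries. Its log2 fold change was 0.32 (edgeR's quasi-likelihood test, adjusted p = 0.000481). RNA of hepatocytes was highest in *Ncr1*+/+ replicate 1 and *Ncr1*gfp/gfp replicate 3, where *Alb*, the albumin gene, reached 28.03 and 37.96 CPM. Without *Ncr1*+/+ replicate 1 or without *Ncr1*gfp/gfp replicate 3, as without any other single library, both genes of the pair stayed lower in *Ncr1*gfp/gfp ILC1s by at least 1.05 on the log2 scale.

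Both genes were lower in *Ncr1*gfp/gfp ILC1s, with no overlap between the libraries of the genotypes. *Tmem176a* had 859, 1012, 773, 1016 and 933 counts in *Ncr1*+/+ replicates 1 to 5, which is 48.2, 44.6, 38.6, 51.3 and 50.8 CPM. In *Ncr1*gfp/gfp replicates 1 to 5 it had 368, 327, 339, 465 and 355 counts, or 23.4, 14.9, 17.9, 27.7 and 21.1 CPM. The highest *Ncr1*gfp/gfp library, replicate 4, was 10.99 CPM below the lowest *Ncr1*+/+ library, replicate 3. The mean was 46.7 ± 5.21 CPM in *Ncr1*+/+ libraries and 21.0 ± 4.90 CPM in *Ncr1*gfp/gfp libraries (SD, n = 5 each), so that *Ncr1*gfp/gfp cells held 45.0% of the *Ncr1*+/+ level. The log2 fold change was -1.16 (standard error, SE, 0.14), with a 95% interval from -1.42 to -0.89.

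*Tmem176b*, the gene with more reads, had 2403, 2100, 2104, 2381 and 2077 counts in *Ncr1*+/+ replicates 1 to 5, which is 135, 92.6, 105, 120.2 and 113 CPM. In *Ncr1*gfp/gfp replicates 1 to 5 it had 800, 927, 958, 715 and 952 counts, or 50.8, 42.4, 50.7, 42.5 and 56.6 CPM. The gap between the genotypes was wider than for *Tmem176a*, with 36.0 CPM between the highest *Ncr1*gfp/gfp library, replicate 5, and the lowest *Ncr1*+/+ library, replicate 2. The mean was 113 ± 15.8 CPM in *Ncr1*+/+ libraries and 48.6 ± 6.12 CPM in *Ncr1*gfp/gfp libraries (SD, n = 5 each), or 43.0% of the *Ncr1*+/+ level. The log2 fold change was -1.22 (SE 0.10), with a 95% interval from -1.41 to -1.02. In these bulk libraries a smaller share of cells with the transcripts and less RNA per cell cannot be told apart.

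**Figure D1:**
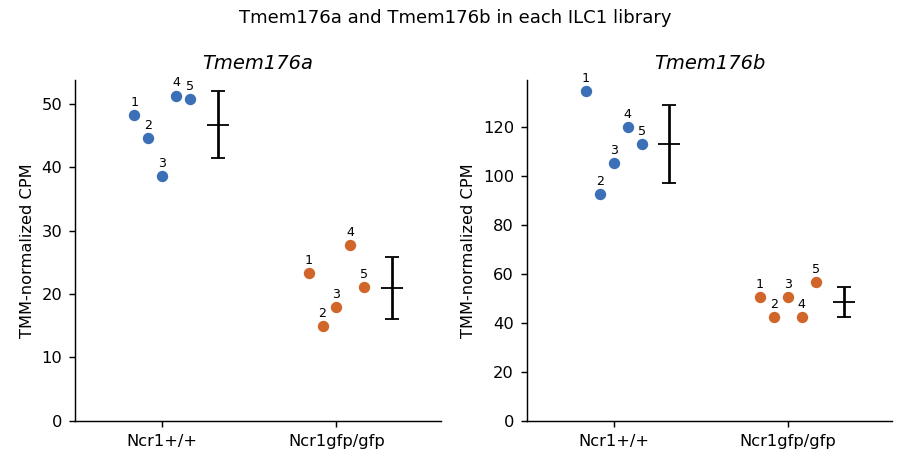
TMM-normalized CPM (vertical axis) of *Tmem176a* (left) and *Tmem176b* (right) in each library, with replicate numbers above the points and the mean ± SD of 5 libraries beside them. All *Ncr1*gfp/gfp points of *Tmem176a* lie at or under 27.7 CPM and those of *Tmem176b* at or under 56.6 CPM, below every *Ncr1*+/+ point.

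In edgeR's quasi-likelihood test, a gene counted as called when its Benjamini-Hochberg adjusted p was under 0.05 and its fold change lay above 1.5 or below 0.7. Both genes met the thresholds, as did 0.532% of all tested genes in the lower direction. Since the pair was chosen with this contrast known, nothing is read from that count. A level lower in all *Ncr1*gfp/gfp than in all *Ncr1*+/+ libraries was found for 1.82% of tested genes. By the size of the decrease, *Tmem176b* stood at place 10 and *Tmem176a* at place 13 of the 61 genes called lower.

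Relative to all transcripts of the cell, the pair moved from the upper part of the range towards the middle. Divided by exon length, *Tmem176a* had 41.7 ± 4.66 CPM per kb and *Tmem176b* 55.3 ± 7.72 CPM per kb in *Ncr1*+/+ ILC1s (SD, n = 5). At these levels, 85.9% and 90.5% of the tested genes had less RNA per kb. In *Ncr1*gfp/gfp ILC1s the levels per length were 18.8 ± 4.38 for *Tmem176a* and 23.7 ± 2.99 CPM per kb for *Tmem176b*, above 65.99% and 73.0% of the tested genes. Even so, neither gene had fewer than 327 counts in any *Ncr1*gfp/gfp library, far above the 3 counts taken as the limit of detection.

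The ratio of the 2 genes was compared next, because it does not depend on how the libraries are scaled. Per exon length, *Tmem176b* had 1.53, 1.13, 1.49, 1.28 and 1.22 times the level of *Tmem176a* in *Ncr1*+/+ replicates 1 to 5. In *Ncr1*gfp/gfp replicates 1 to 5 the ratio was 1.19, 1.55, 1.54, 0.840 and 1.47. *Tmem176b* was therefore the higher gene in all libraries but *Ncr1*gfp/gfp replicate 4, where *Tmem176a* had its highest and *Tmem176b* nearly its lowest level of that genotype. On the log2 scale the ratio averaged 0.40 ± 0.19 in *Ncr1*+/+ and 0.36 ± 0.38 in *Ncr1*gfp/gfp ILC1s (SD, n = 5 each). The difference of these means, -0.04, was smaller than the SD of either genotype, so that the fold changes of the 2 genes could not be told apart with these libraries.

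**Figure D2:**
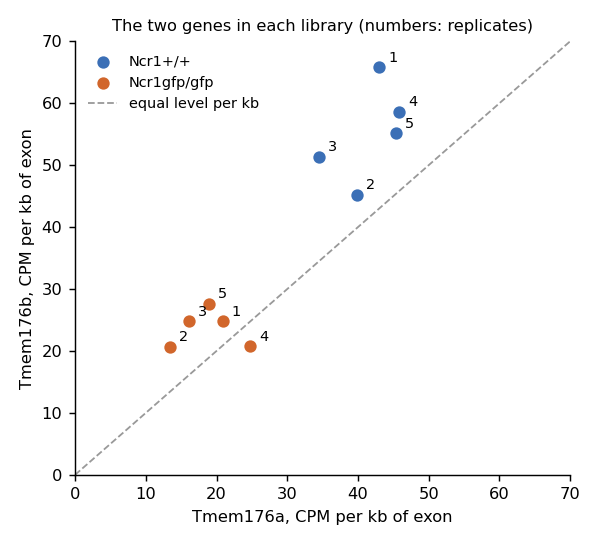
*Tmem176b* (vertical axis) against *Tmem176a* (horizontal axis), both in TMM-normalized CPM per kb of exon, in each of the 10 libraries, with replicate numbers beside the points and a dashed line of equal levels. The genotypes form separate clusters, and only *Ncr1*gfp/gfp replicate 4, with a ratio of 0.840, lies under the line.

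Within genotypes, the pair varied together only weakly over the 10 libraries, though the strength depended on the genotype and on single libraries. The variation of *Tmem176a* between libraries, as the SD over the mean, was 11.2% in *Ncr1*+/+ and 23.3% in *Ncr1*gfp/gfp ILC1s. Counting error alone would give 3.30% and 5.19% at these counts. For *Tmem176b* the values were 14.0% and 12.6%, against 2.13% and 3.39% from counting. After each genotype mean was subtracted from log2 CPM, the SD was 0.27 for *Tmem176a* and 0.19 for *Tmem176b*, next to a median of 0.19 over the tested genes.

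Because the genotypes are separate clusters of 5 libraries, no correlation over the raw levels is given. Over the deviations from the genotype means in the 10 libraries, Pearson's r between *Tmem176a* and *Tmem176b* was 0.21 and Spearman's rho was 0.32. Pearson's r was 0.51 in the 5 *Ncr1*+/+ libraries alone and 0.07 in the 5 *Ncr1*gfp/gfp libraries alone. Leaving out *Ncr1*gfp/gfp replicates 2 and 4, the libraries farthest from the median of *Tmem176a*, gave an r of 0.39. Leaving out only *Ncr1*gfp/gfp replicate 4 gave 0.62, and across all single libraries left out r ran from -0.07 to 0.62. These values are descriptions with no test, from libraries that share normalization and depth. Of the 11462 other tested genes, *Tmem176b* was number 3564 in likeness to *Tmem176a*, and *Tmem176a* was number 3340 in likeness to *Tmem176b*.

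The genes most like the pair within genotypes, by the mean of their correlations with *Tmem176a* and *Tmem176b*, were *Tet2*, *Snx17*, *Klf13*, *Trappc1* and *Trappc6b*. Their mean r was between 0.71 and 0.73 over 10 libraries. None of these 5 was called between the genotypes, with log2 fold changes from -0.10 to 0.06 (smallest adjusted p = 0.548, edgeR's quasi-likelihood test). This order of genes was not stable, since between 1 and 3 of the 5 were again among the first 5 when a library was left out.

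**Figure D3:**
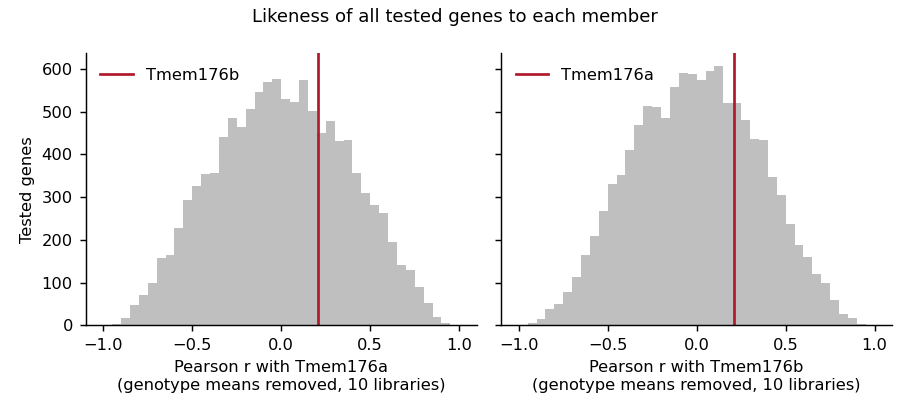
Number of tested genes (vertical axis) by their Pearson r with *Tmem176a* (left) or *Tmem176b* (right) over 10 libraries, after the genotype means were removed. The red line marks the other gene of the pair at 0.21, within the broad middle of both distributions.

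None of the neighbouring genes of chromosome 6 that could be tested was called. Within 1 Mb on either side of the pair the table lists 42 other genes, of which 28 passed the filter and 8 had no count in any library. None of the 28 was called in either direction, and none had an adjusted p-value under 0.05 (smallest 0.163, edgeR's quasi-likelihood test), with 6 at an unadjusted p-value under 0.05. Among all tested genes, 0.532% were called lower and 0.201% higher. The median log2 fold change of the 28 genes was 0.02, next to 0.00 over all tested genes.

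The nearest tested gene was *Gimap3*, 63.0 kb before the pair. It belongs to the GIMAP family of GTPases, which support the survival of lymphocytes and whose genes form a cluster here. The mean of *Gimap3* was 1762 CPM in *Ncr1*+/+ and 1648 CPM in *Ncr1*gfp/gfp libraries, a log2 fold change of -0.10 (SE 0.04, edgeR adjusted p = 0.274). Small as this was, its libraries did not overlap, with 1622 to 1668 CPM in *Ncr1*gfp/gfp and 1727 to 1861 CPM in *Ncr1*+/+. Among all tested genes, 1.82% were lower without overlap. The 8 *Gimap* genes of this window held between 90.1% and 108% of their *Ncr1*+/+ level in *Ncr1*gfp/gfp ILC1s, against 45.0% and 43.0% for *Tmem176a* and *Tmem176b*. Per exon length the *Gimap* genes were also far more abundant than the pair, with 98.7 to 1213 CPM per kb in *Ncr1*+/+ ILC1s. On the other side, the nearest gene, *Gm7932*, had no count in any library, and the nearest tested gene was *Gpnmb*, at 191 kb. *Gpnmb*, which encodes a glycoprotein of myeloid cells, had a log2 fold change of 0.42 (SE 0.19, edgeR adjusted p = 0.389).

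**Figure D4:**
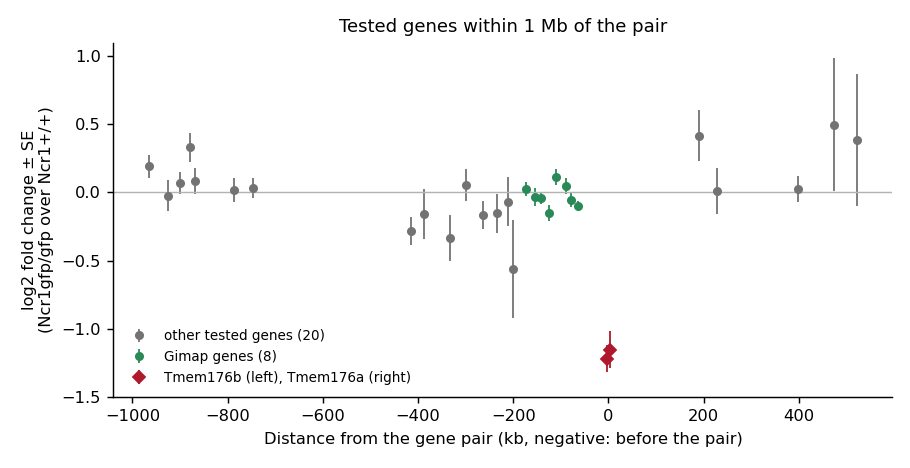
Log2 fold change of *Ncr1*gfp/gfp over *Ncr1*+/+ ILC1s with its standard error (vertical axis) for the 28 tested genes within 1 Mb and for the pair, by distance in kb (horizontal axis). The pair, drawn at the middle of each gene body, lies at -1.22 and -1.16, while the *Gimap* genes (green) lie between -0.15 and 0.11.

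The MS4A genes, the relatives of the pair, lie elsewhere in the genome. None was called, next to 0.532% called lower and 0.201% higher among all tested genes. With so few MS4A genes tested, the absence of a call says little. Of 17 listed MS4A genes, 6 had no count in any library and 5 were tested, with a median log2 fold change of -0.08. Their summed level was 443 to 542 CPM in *Ncr1*gfp/gfp and 428 to 526 CPM in *Ncr1*+/+ libraries (two-sided exact permutation test, p = 0.992). The most abundant was *Ms4a4b*, a surface protein of NK and T cells, with 356 ± 36.9 CPM in *Ncr1*+/+ and 337 ± 28.3 CPM in *Ncr1*gfp/gfp libraries (SD, n = 5 each). Next were *Ms4a6b* with a log2 fold change of 0.26 (SE 0.07, edgeR adjusted p = 0.0962) and *Ms4a6c* with 0.00 (SE 0.18, edgeR adjusted p = 0.998).

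As both genes are known from type 3 lymphocytes, genes of type 3 innate lymphoid cells (ILC3s) were examined beside them. Of 15 listed genes, 6 were tested and 5 of these had a lower level in *Ncr1*gfp/gfp ILC1s, but only *Kit* was called, next to 0.532% called lower among all tested genes. The median log2 fold change was -0.31. The summed CPM of the list ran from 301 to 348 in *Ncr1*gfp/gfp and from 333 to 410.1 in *Ncr1*+/+ libraries, and thus overlapped (two-sided exact permutation test, p = 0.0159, or 0.0291 adjusted over 11 lists). The difference of the mean sums, -64.6 CPM, came to -27.5 CPM without *Kit* and *Ahr*, chosen after the values were seen (exact permutation p = 0.0476). Their part in the decrease of the pair was not tested.

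The cytokine genes *Il22*, *Il17a* and *Il17f*, which define the function of ILC3s, had no count in any library. Of the other untested genes of the list, *Il23r* had up to 21 and *Il1r1* up to 15 counts, each in 6 libraries. *Cxcr5*, *Tnfsf11* and *Ccr6* had up to 13, 9 and 3 counts, in 2, 4 and 1 of the libraries, and *Rorb* had no count. In a library of this depth, 3 counts correspond to between 0.132 and 0.1905 CPM, a limit that covers counting error only.

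*Kit*, the receptor of stem cell factor, had a log2 fold change of -0.76 (SE 0.18, edgeR adjusted p = 0.0290). The libraries of both genotypes overlapped in *Kit*, and the call held in only 2 of the 10 fits that each lacked a library, with a largest adjusted p of 0.105 in the same edgeR test. *Ahr*, the aryl hydrocarbon receptor that maintains ILC3s, fell by less than the fold threshold, with a log2 fold change of -0.31 (SE 0.08, edgeR adjusted p = 0.0482). *Ltb*, which encodes lymphotoxin beta, and *Batf*, an AP-1 family factor, had log2 fold changes of -0.15 and -0.31 (edgeR adjusted p = 0.459 and 0.328).

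Genes of dendritic cells and macrophages, which carry much TMEM176 RNA, were examined next. Of the 16 dendritic cell genes, 9 were tested and none was called in either direction. Among all tested genes, 0.532% were called lower and 0.201% higher. *Flt3*, *Xcr1* and *Clec9a*, which define dendritic cells, had at most 5, 14 and 12 counts in any library, whereas *Cd74*, the invariant chain of MHC class II, had 209 to 1126 counts. *Zbtb46*, another dendritic cell gene of the list, was detected in all 10 libraries, with 45 to 124 counts. The summed CPM of the list was mostly *Itgax* (CD11c), which the ILC1s themselves held at 1401 ± 55.5 CPM in *Ncr1*+/+ and 1707 ± 50.6 CPM in *Ncr1*gfp/gfp libraries (SD, n = 5 each). The sum was 1712 to 1830 in *Ncr1*gfp/gfp and 1394 to 1600 CPM in *Ncr1*+/+ libraries (two-sided exact permutation test, p = 0.00794, or 0.0175 adjusted over 11 lists). Without *Itgax*, a choice made after the values were seen, the direction turned, with 54.9 to 88.7 CPM in *Ncr1*gfp/gfp and 68.9 to 159 CPM in *Ncr1*+/+ libraries (two-sided exact permutation test, p = 0.0635).

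The MHC class II genes of this list, which present antigen on dendritic cells, macrophages and B cells, had fold changes of a size near that of the pair but did not pass the test. *H2-Eb1* had 57, 129, 203, 155 and 306 counts in *Ncr1*+/+ replicates 1 to 5 while *Ncr1*gfp/gfp replicates 1 to 5 had 44, 49, 81, 96 and 31. Its log2 fold change was -1.37 (SE 0.37, edgeR adjusted p = 0.0759). Values for *H2-Aa*, *H2-Ab1* and *Cd74* were -1.12, -0.84 and -0.91 (edgeR adjusted p = 0.188, 0.276 and 0.0978). Other genes of the list changed less, and the median over its 9 tested genes was -0.23. *Irf4*, *Zbtb46*, *Ciita* and *Cst3* had -0.23, -0.19, -0.14 and 0.04 (edgeR adjusted p = 0.907, 0.875, 0.916 and 0.942). For *H2-Eb1*, *H2-Aa* and *H2-Ab1* the lowest *Ncr1*+/+ library was replicate 1, which had the highest *Tmem176b*, and the highest was replicate 5. *Cd74* was instead lowest in *Ncr1*+/+ replicate 2, which had the lowest *Tmem176b* of that genotype. In *Ncr1*gfp/gfp replicate 2, *H2-Aa*, *H2-Ab1* and *Cd74* were the lowest of that genotype, as were both genes of the pair. *H2-Eb1* was lowest in *Ncr1*gfp/gfp replicate 5. Whether cells with class II genes contributed to the difference of the pair was not tested.

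Of the 16 genes of the macrophage and Kupffer cell list, 10 were tested and 9 of them had a negative log2 fold change, next to 49.3% of all tested genes. Only *Ccr2* was called, next to 0.532% called lower among all tested genes. *Ccr2* is a chemokine receptor of monocytes that lymphocytes carry as well, with 161 ± 37.8 CPM in *Ncr1*gfp/gfp against 265 ± 29.1 CPM in *Ncr1*+/+ ILC1s (SD over 5 libraries each). The log2 fold change was -0.72 (SE 0.12, edgeR adjusted p = 0.00258). The summed list was 114 to 235 CPM in *Ncr1*gfp/gfp and 261 to 355 CPM in *Ncr1*+/+ libraries (p = 0.00794 by the same exact permutation test, which can go no lower with 5 against 5 libraries, or 0.0175 adjusted over 11 lists). Without *Ccr2*, again chosen after the values were seen, the sums were 13.1 to 57.6 and 16.7 to 86.1 CPM (two-sided exact permutation test, p = 0.516). *Lyz2*, the lysozyme of myeloid cells, and *Csf1r*, the receptor of a macrophage growth factor, had log2 fold changes of -0.38 and -0.25 (edgeR adjusted p = 0.851 and 0.909).

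*Csf1r* had 39, 206, 108, 149 and 239 counts in *Ncr1*+/+ replicates 1 to 5 while *Ncr1*gfp/gfp replicates 1 to 5 had 83, 15, 190, 161 and 97. *Ncr1*+/+ replicate 1 had the least *Csf1r* of its genotype and the most *Tmem176b*. *Ncr1*gfp/gfp replicate 2 had the least *Csf1r* of its genotype and also the lowest levels of both *Tmem176a*, 14.9 CPM, and *Tmem176b*, 42.4 CPM. The part of macrophage RNA in the levels of the pair was not tested.

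**Figure D5:**
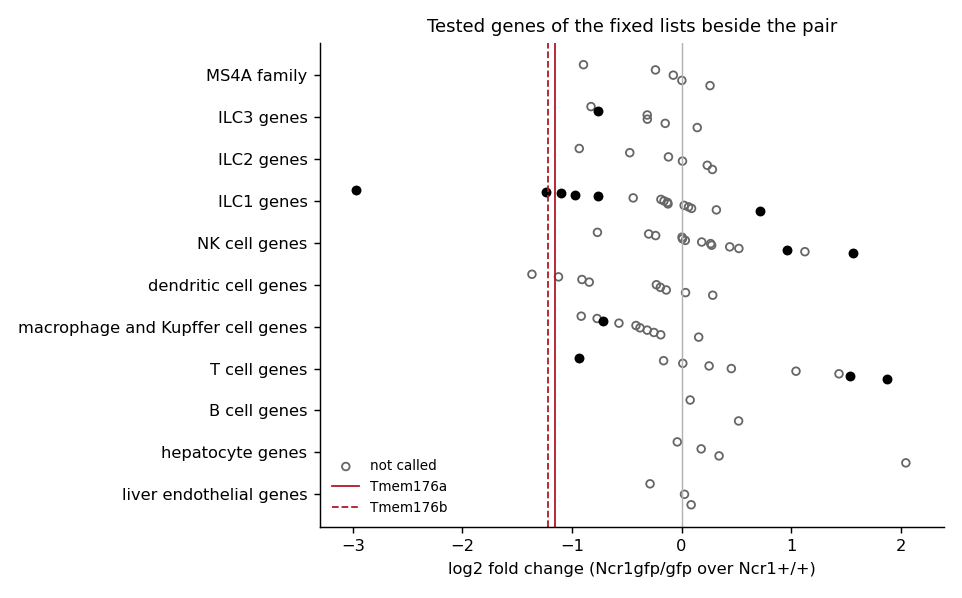
Log2 fold change of *Ncr1*gfp/gfp over *Ncr1*+/+ ILC1s (horizontal axis) for the tested genes of each list (rows), filled where called, with red lines at *Tmem176a* (-1.16) and *Tmem176b* (-1.22). Of the ILC3, dendritic cell and macrophage lists, only *H2-Eb1* (-1.37), which was not called, lies beyond the red lines.

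The remaining lists describe the sorted cells and their neighbours in the liver. Of 15 tested ILC1 genes, 5 were called lower and 1 higher. Among all tested genes, for this and the NK and T cell lists alike, 0.532% were called lower and 0.201% higher. Besides *Ncr1* and *Kit*, the genes called lower were the cytokine receptors *Il2ra*, *Il18r1* and *Il7r*, and the gene called higher was the granzyme *Gzmc*. *Ncr1* is the targeted gene, and the study had reported these receptors as lower in these data, so that nothing is read from the count called lower. The log2 fold changes of *Il2ra* and *Il18r1*, -1.24 and -1.10, lay on either side of those of *Tmem176a* and *Tmem176b*. Of 14 tested NK cell genes, 2 were called higher, *Itgam* (CD11b) and the inhibitory receptor *Klra7*. Reads that map equally to *Klra7* and its close paralogs are dropped in the counting. *Klrb1c*, *Prf1* (perforin) and *Irf8* were not called. The ILC1 sum was 5813 to 6335 CPM in *Ncr1*gfp/gfp against 7366 to 8122 CPM in *Ncr1*+/+ libraries (exact permutation p = 0.00794, or 0.0175 adjusted over 11 lists). As this sum includes the targeted gene *Ncr1*, its outcome was set by the design and nothing is read from the p-value. Without *Ncr1* itself the ranges were 5671 to 5995 and 5430 to 6037 CPM (exact permutation p = 0.873). The NK cell sum was 4109 to 5583 against 3434 to 3808 CPM (exact permutation p = 0.00794, or 0.0175 adjusted over 11 lists). Most of it was *Gzma*, the granzyme A gene, which had a log2 fold change of 0.44 (SE 0.07, edgeR adjusted p = 0.00207), under the fold threshold. Without *Gzma* the NK cell sums were 710.2 to 816 and 699 to 721 CPM (exact permutation p = 0.0238).

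Among the ILC2 genes, none of the 6 tested was called, next to 0.532% called lower and 0.201% higher among all tested genes. *Gata3*, the main factor of that lineage, had a log2 fold change of -0.12 (edgeR adjusted p = 0.571), *Rora* one of -0.47 (edgeR adjusted p = 0.0859) and *Ptgdr2* one of 0.28 (edgeR adjusted p = 0.729). The summed list was 200 to 300 CPM in *Ncr1*gfp/gfp and 267 to 321 CPM in *Ncr1*+/+ libraries (two-sided exact permutation test, p = 0.0397, or 0.0624 adjusted over 11 lists). Of 9 tested T cell genes, *Cd3e* and *Cd8a* were called higher and the costimulatory receptor *Cd28* lower. The sum of the T cell list was 748 to 939 CPM in *Ncr1*gfp/gfp and 600.3 to 702 CPM in *Ncr1*+/+ libraries. The exact permutation p of that sum was 0.00794, or 0.0175 adjusted over 11 lists. Most of it was *Cd3g*, a chain of the CD3 complex, at 687 ± 74.6 against 501 ± 53.1 CPM (SD, n = 5 each), and without it the sums were 139 to 212 and 147 to 158 CPM (exact permutation p = 0.413). The calls of *Cd8a* and *Cd28* were lost in 4 and 3 of the 10 fits without a library. No gene of the B cell, hepatocyte or liver endothelial lists was called, next to the same shares among all tested genes. Their sums overlapped between the genotypes (two-sided exact permutation tests, p = 0.516, 0.841 and 0.278). Most of the hepatocyte sum was *Trf*, with 138 CPM in *Ncr1*+/+ and 135 CPM in *Ncr1*gfp/gfp libraries. Most of the endothelial sum was *Pecam1*, with 130 and 138 CPM, so that these overlaps say little of the other genes.

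Over all lists and neighbours, 108 different genes other than the pair and *Ncr1* were tested, and 11 were called, 6 lower and 5 higher. Several of them were listed because earlier results of these data were known, so that this share says nothing of the lists. Next to *Tmem176a* and *Tmem176b*, *Il2ra* was the single gene among them called lower with a larger fold change than either of the pair.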

How the data were processed

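RNA was isolated from sorted liver ILC1s, and 2 ng gave cDNA by polyA-primed amplification, sequenced as single reads of 51 cycles. Trimmomatic and FASTP (trimming), STAR (mapping) and HTSeq (counting, at its defaults) were run by the authors, who deposited raw counts for 24564 genes. At these defaults HTSeq drops multiply mapped reads, which lowers genes with close copies. Of 23924 names matched to RefSeq, 344 had the start given for GRCm38.p6, so coordinates are printed without a build.

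Genes were kept by filterByExpr, scaled by TMM and tested by quasi-likelihood (edgeR 4.0.16, R 4.3.3) with genotype as the single term. Adjustment was by Benjamini-Hochberg over 11463 genes. Genes were called at an adjusted p under 0.05 with a fold change above 1.5 or below 0.7. Standard errors came from the F statistic. Deviations used log2 CPM with a prior count of 2. Libraries of 1 genotype differed by more than sampling noise (chi-square per gene 9.25 to 24.1 over 20 pairs), and each was 1 replicate. The members and gene lists were chosen with earlier results of these data known. Named genes are the pair, the 5 most like it, the nearest neighbours, *Ncr1*, and in each list the called genes and some of the 3 most abundant. *Il22*, *Il17a*, *Il17f*, *Flt3*, *Xcr1*, *Clec9a*, *Gpnmb*, *H2-Eb1*, *H2-Aa* and *H2-Ab1* were named after their values were seen. The same holds for *Zbtb46*, *Irf4*, *Ciita*, *Il23r*, *Il1r1*, *Cxcr5*, *Tnfsf11*, *Ccr6* and *Rorb*. Alternatives were DESeq2 1.42.0, limma 3.58.1 (voom with quality weights), other size factors, other filters, a replicate block and leaving out each library. One gene of the ILC3 list is not reported here and was left out of its counts and sum. The edgeR fit was tested on simulated data.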

Additional observations from a re-analysis of the deposited data

Results flagged for a closer look

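Library totals, sums of the lists, the ratio of the pair and the named genes were examined for a library far from the others of its genotype. Of 124 groups of 5 libraries, 14 had such a value, where chance gives about 1 in 20, or 6.2. Neither *Tmem176a*, *Tmem176b* nor their ratio was among them.

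*Alb* was 28.03 CPM in *Ncr1*+/+ replicate 1 and 37.96 CPM in *Ncr1*gfp/gfp replicate 3, *Apob* was 11.4 and 13.7 CPM in these libraries, and the sum of the hepatocyte list was 194.7 and 233 CPM. In *Ncr1*gfp/gfp replicate 2, the sum of the macrophage and Kupffer cell list was 114 CPM, against 207 CPM in the next library, *Klrb1c* was 1194 CPM and *Trappc6b* was 25.7 CPM. The same library had the lowest *Tmem176a* of all, at 14.9 CPM. The sum of the ILC3 list was 333 CPM in *Ncr1*+/+ replicate 2, where *Tmem176b* was the lowest of its genotype at 92.6 CPM. *Kit* was 28.9 CPM in *Ncr1*gfp/gfp replicate 1, *Cd74* was 61.3 CPM in *Ncr1*+/+ replicate 5, *Ccr2* was 214 CPM in *Ncr1*+/+ replicate 4 and *Gimap3* was 1861 CPM in *Ncr1*+/+ replicate 1.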

How the results depend on the processing

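Under the 7 alternatives of scaling, filter, test and block, the log2 fold change of *Tmem176a* lay between -1.18 and -1.15 and that of *Tmem176b* between -1.22 and -1.16, and the difference of their log2 ratio between -0.06 and 0.01. With each library left out, they lay between -1.27 and -1.05, between -1.28 and -1.15 and between -0.11 and 0.11. No filter on low counts gave 131 called genes instead of 84, and DESeq2 gave 126. The fits without a library called 60 to 98 genes in all and 9 to 13 genes of the lists. A rank correlation kept 1 of the 5 genes most like the pair, and leaving out a library kept 1 to 3. The r of *Tmem176a* and *Tmem176b* within genotypes ran from -0.0700 to 0.617 with a library left out. Without *Itgax*, the difference of the dendritic cell sums turned to -31.6 CPM, and without *Ccr2* that of the macrophage sums was -10.1 CPM. Without *Ncr1*, that of the ILC1 sums turned from -1754 to 17.2 CPM, and without *Cd3g* that of the T cell sums was 16.7 CPM instead of 202 CPM. Without *Gzma*, that of the NK cell sums was 49.7 CPM instead of 1094 CPM. These single genes were chosen after the values were seen. A replicate block by the numbers in the titles gave log2 fold changes of -1.18 and -1.22, 87 called genes and 12 of the lists. Whether the numbers pair the libraries is not stated in the sources. Deviations of libraries with the same number correlated between -0.02 and 0.04, which showed no pairing but cannot exclude one.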
